A study of Mus musculus with 10 samples.

Results

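The genes described here are 4 ligands of the interleukin-17 family (*Il17a*, *Il17f*, *Il17c* and *Il25*), the 4 receptor subunits *Il17ra*, *Il17rb*, *Il17rc* and *Il17re*, and *Il23r*, the receptor subunit specific to IL-23. They were chosen by gene symbol, with the genotype difference of these same libraries already known, and all 9 were found among the 45706 genes of the count table. All 9 had a mean of at least 1 count per library and were therefore among the 25146 genes tested. Uteri were taken at gestation day (GD) 3.5, just before implantation, from 5 control mice of the genotype Arid1a f/f and from 5 mutants of the genotype Ltf iCre/+ Arid1a f/f. A part of each uterus was frozen for RNA, and mRNA of this whole uterine tissue was sequenced. Mice of both genotypes carried floxed *Arid1a* alleles, were 12 to 15 weeks old, had a mixed background of C57BL/6, 129S6/SvEvTac, 129P2/OlaHsd and 129S1/SvImJ and had been mated with wildtype males. The mutants also carried a Cre recombinase placed in the lactoferrin locus, which is active in the endometrial epithelium of adult females and has also been reported in neutrophils and other myeloid cells. *Arid1a* encodes a subunit of the SWI/SNF chromatin remodelling complexes.

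IL-17 ligands are secreted proteins that bind pairs of receptor subunits on epithelial and stromal cells. IL-17A and IL-17F signal through IL-17RA paired with IL-17RC, IL-17C through IL-17RA paired with IL-17RE, and IL-25, also called IL-17E, through IL-17RA paired with IL-17RB. IL-17A is made mainly by type 17 lymphocytes, among them gamma delta T cells, which carry the IL-23 receptor, and at mucosal surfaces it induces chemokines that draw neutrophils.

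The control libraries and the mutant libraries held between 59296537 and 72702411 counts. *Arid1a* stood at 213 ± 22.9 counts per 1000000 (CPM, SD, n = 5) in controls and 185 ± 15.9 CPM in mutant uteri, with overlapping values and a log2 fold change of -0.20 ± 0.09 (SE, edgeR quasi-likelihood test, adjusted p = 0.201). Counts over the whole gene in whole uterine tissue do not resolve the floxed exons in the epithelium. *Ltf*, the locus that holds Cre and a granule protein gene of neutrophils, stood at 2.23 to 11.7 CPM in controls and 23.6 to 2831 CPM in mutant uteri. Replicate 5 of the mutant uteri stood apart in neutrophil genes, with a summed level of 882 CPM without *Lcn2*, a gene of epithelium as well as neutrophils, against 13.2 to 23.9 CPM in the other 4 mutant uteri and 6.28 to 24.8 CPM in controls. Replicate 1 stood apart with it in *Lcn2*, at 635 and 1659 CPM against 2.35 to 32.8 CPM in the other 3. The uterine stromal and myometrial markers were abundant in every library, with sums of 9237 to 15640 CPM and 3011 to 10150 CPM. In whole-tissue RNA, fewer cells of a type and less RNA per cell cannot be told apart.

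Of the 9 members, *Il17a*, *Il17re* and *Il23r* were higher and *Il17rb* was lower in all 5 mutant uteri than in any control. These 4 were also the members past an adjusted p of 0.05 in the edgeR quasi-likelihood test, in which 9.70% of all genes tested passed (5.19% higher and 4.51% lower). Separation of the genotypes without overlap was met by 10.7% of all genes tested (5.53% higher and 5.16% lower). Without control replicate 2 or 4, *Il17rb* was not past the threshold. The same 4 members passed by DESeq2, which called 19.0% of its genes tested, and with the replicate number as a block (6.78% called), and *Il17rc* joined them without mutant replicate 5 (9.15% called) and without mutant replicates 1 and 5 (9.41% called). Since the members were picked with this contrast known, their values are given as a description and nothing is read from these counts. The other 5 members, *Il17f*, *Il17c*, *Il25*, *Il17ra* and *Il17rc*, overlapped between the genotypes.

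**Figure D1:**
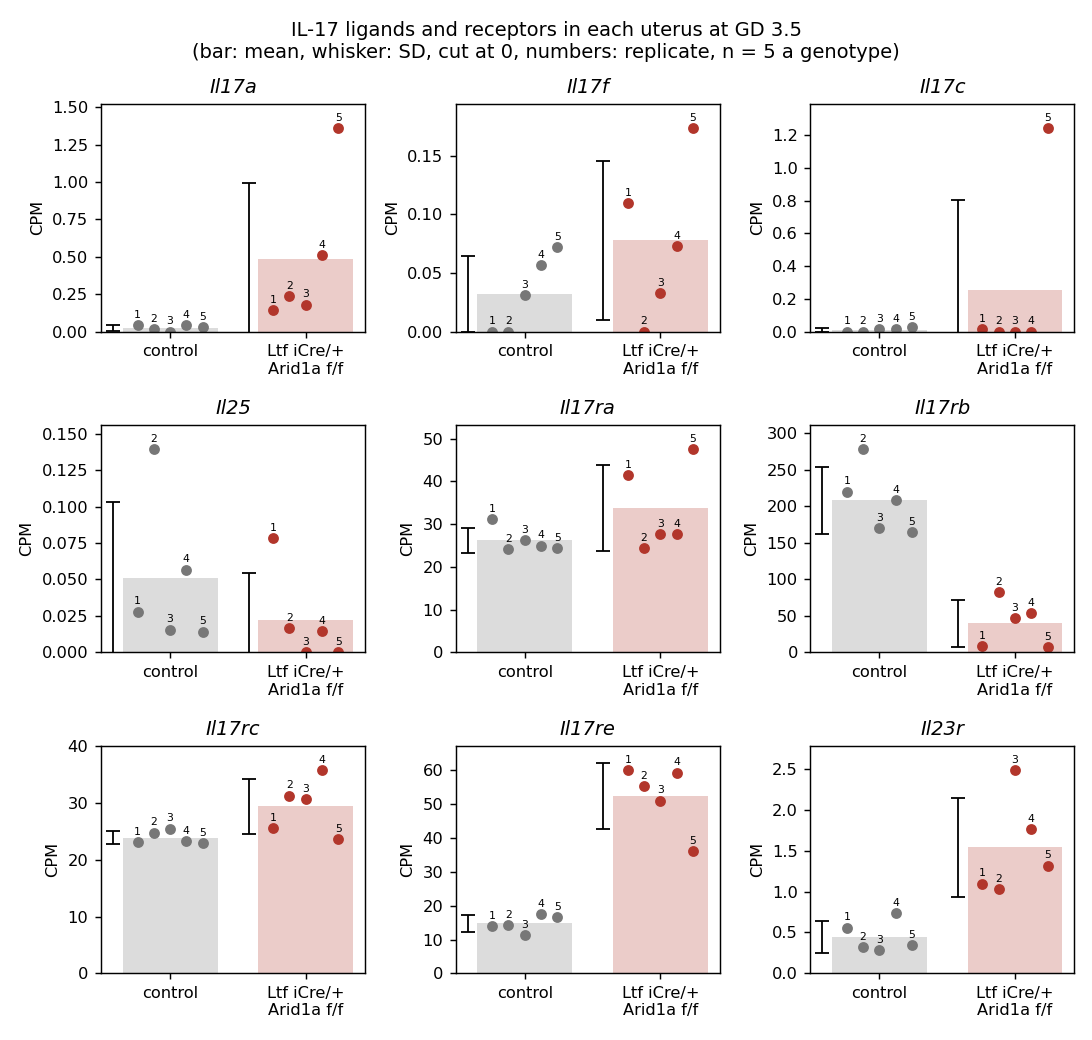
CPM of each of the 9 members in each uterus, on separate linear axes that start at 0, with grey for 5 control Arid1a f/f uteri and red for 5 mutant (Ltf iCre/+ Arid1a f/f) uteri; bars are means, whiskers are SDs and numbers are replicates. All red points of *Il17a*, *Il17re* and *Il23r* lie above the grey points and all red points of *Il17rb* lie below them, while 1 uterus, replicate 5, carries the high mean of *Il17c*.

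*Il17a* encodes the founding ligand of the family and lies on chromosome 1 (GRCm38, 20730905 to 20734496, plus strand, 3 exons). *Il23r* encodes the subunit through which IL-23 sustains type 17 lymphocytes and lies on chromosome 6 (67422932 to 67491855, minus strand, 11 exons). Of the 9 members, 7 had a promoter sequence in RefSeq (GRCm38.p6). The 250 bases before the start of the genes for this ligand and this receptor are shown because both were higher in every mutant uterus and both are known from the same lymphocytes. Capitals mark AGGTCA, a core motif shared by many nuclear receptors, on either strand (read as TGACCT where it lies on the other strand) and TATAAA, and no exon of the annotation falls in either stretch.
Il17a, chr1:20730655-20730904, plus strand: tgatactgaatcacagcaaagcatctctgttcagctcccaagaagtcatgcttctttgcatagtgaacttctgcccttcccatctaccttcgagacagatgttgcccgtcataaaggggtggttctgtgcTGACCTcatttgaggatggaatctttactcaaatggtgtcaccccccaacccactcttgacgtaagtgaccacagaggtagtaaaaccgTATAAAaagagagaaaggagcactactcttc
Il23r, chr6:67491856-67492105, minus strand: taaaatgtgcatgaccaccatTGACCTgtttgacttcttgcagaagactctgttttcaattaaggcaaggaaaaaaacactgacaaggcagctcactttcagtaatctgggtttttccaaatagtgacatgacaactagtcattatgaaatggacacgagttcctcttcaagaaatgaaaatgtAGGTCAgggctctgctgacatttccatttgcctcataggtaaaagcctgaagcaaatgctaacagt
AGGTCA began 120 bases before the start of *Il17a* on the opposite strand, and the *Il23r* stretch held it at 66 bases on the gene's strand and at 229 bases on the opposite strand. On both strands, 14.0% of the 32851 RefSeq promoter stretches of this length held AGGTCA and 12.4% held TATAAA, which began 31 bases before the start of *Il17a*. Among the other members with a sequence, *Il17f* held AGGTCA 58 bases before its RefSeq start and TATAAA 29 bases before it. The *Il17f* stretch (20784271 to 20784520) lies within the annotated span of the gene, and 26 of its bases are exonic. *Il17c* held TATAAA at 248 bases. TGACTCA, the AP-1 motif found in 4.46% of promoters, began 104 bases before the start of *Il17rb*, in a stretch with 124 exonic bases. For the kappaB site, bound by NF-kappaB, only a single exact sequence was searched for and none of its variants. That exact sequence was in 0.140% of promoters and in none of these 7, which leaves other forms of the site unexamined. These matches describe letters and not bound sites.

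*Il17a* was close to the limit of detection in controls, with 3, 1, 0, 3 and 2 counts in replicates 1 to 5. The mutant uteri held 9, 14, 11, 35 and 94 counts. Every uterus of this genotype was therefore above every control, and replicates 4 and 5 were above the other 3. In CPM, the mean was 0.0254 ± 0.0184 (SD, n = 5) in controls and 0.485 ± 0.510 in mutant uteri. The ratio of the summed counts, scaled by library size, was 19.5 with a 95% exact interval of 10.03 to 43.45 that covers counting error only. Replicate 5 held the largest part of these counts, and without it the ratio was 10.5 (5.23 to 24.0). The fitted log2 fold change was 4.15 ± 0.81 (SE) with all uteri and 3.28 without replicate 5.

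*Il17f*, whose product forms dimers with IL-17A, is the neighbour of *Il17a* on chromosome 1 (20777146 to 20790617, minus strand), 42649 bases away. It had 0, 0, 2, 4 and 5 counts in controls and 7, 0, 2, 5 and 12 counts in mutant uteri. The genotypes overlapped, with 3 of 5 mutant uteri above every control in CPM and 1 without a count. Its log2 fold change was 1.25 ± 0.99 (SE). The ratio of summed counts was 2.55 (1.22 to 5.71) with all uteri and 1.75 (0.737 to 4.25) without replicate 5. At this depth, a difference in *Il17f* could not be separated from counting error once that uterus was left out.

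*Il17c*, a ligand that epithelial cells themselves make, lies on chromosome 8 (122422020 to 122423639, plus strand). Controls had 0, 0, 1, 1 and 2 counts, and mutant uteri had 1, 0, 0, 0 and 86. A single uterus, replicate 5, held nearly all reads of this gene in the study. The ratio of summed counts was 23.4 (8.83 to 88.0) with that uterus and 0.343 (0.00697 to 3.47) without it. The same uterus had the highest summed neutrophil level (2541 CPM, or 882 CPM without *Lcn2*), and the part of those cells in the value was not tested. The fitted log2 fold change of 4.25 ± 1.73 (SE) rested on it, since without replicate 5 the gene had too few counts to be tested.

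*Il25*, the ligand of tuft cells that starts type 2 responses, lies on chromosome 14 (54932695 to 54935837, plus strand). Its counts were 2, 10, 1, 4 and 1 in controls and 5, 1, 0, 1 and 0 in mutant uteri. The ranges overlapped, and 2 mutant uteri had no count, which allows up to 3 counts or 0.0491 and 0.0434 CPM in replicates 3 and 5. The ratio of summed counts was 0.419 with an interval of 0.148 to 1.05, and the log2 fold change was -1.16 ± 0.98 (SE). No difference was detectable at this depth.

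*Il17rb* encodes the subunit that pairs with IL-17RA to bind IL-25 and was the most abundant member. It lies on chromosome 14 (29996135 to 30008896, minus strand, 11 exons in its longest transcript). Controls stood at 220, 278, 170, 209 and 165 CPM in replicates 1 to 5. Mutant uteri stood at 8.88, 82.9, 46.9, 53.9 and 7.68 CPM. All were below the lowest control, and replicates 1 and 5 were far below the other 3 of their own genotype. The mean went from 209 ± 45.8 CPM (SD, n = 5) to 40.0 ± 32.0 CPM, a ratio of 5.21 in favour of controls and a log2 fold change of -2.38 ± 0.57 (SE). Without replicates 1 and 5 the log2 fold change was -1.77, so the direction was the same without these uteri. Replicates 1 and 5 were also the uteri with the most *Lcn2*, and whether these go together was not tested. The exons share 141 of 3707 bases with *Actr8* on the opposite strand, and whether reads were counted by strand is not given in the sources used here. *Actr8* stood at 33.4 ± 1.33 CPM in controls and 34.3 ± 1.04 CPM in mutant uteri, a log2 fold change of 0.04 ± 0.07 (SE).

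*Il17re* encodes the subunit that pairs with IL-17RA to bind IL-17C, and its product is known mostly from epithelial cells and type 17 lymphocytes. The gene lies on chromosome 6 (113458484 to 113470758, plus strand) and is followed, 668 bases on, by *Il17rc*. Controls stood at 13.9, 14.3, 11.4, 17.5 and 16.7 CPM. Mutant uteri stood at 60.2, 55.4, 51.1, 59.4 and 36.3 CPM. The lowest of these, replicate 5, was still above the highest control. The mean was 14.8 ± 2.43 CPM (SD, n = 5) in controls and 52.4 ± 9.74 CPM in mutant uteri, 3.55 times as high, with a log2 fold change of 1.83 ± 0.16 (SE). Leaving out each uterus in turn gave 1.74 to 1.93, the narrowest range relative to its size among the 4 members whose genotypes did not overlap.

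*Il23r* was present at low levels, with 40, 23, 18, 52 and 24 counts in controls and 70, 61, 152, 121 and 91 counts in mutant uteri. In CPM these were 0.560, 0.321, 0.282, 0.739 and 0.345 in controls against 1.10, 1.03, 2.49, 1.76 and 1.32. The uterus with the highest value was replicate 3, and not replicate 5 as for *Il17a*. The mean was 0.449 ± 0.195 CPM (SD, n = 5) in controls and 1.54 ± 0.601 CPM in mutant uteri, 3.42 times as high, with a log2 fold change of 1.77 ± 0.35 (SE).

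*Il17ra* and *Il17rc* encode the subunits shared by IL-17A and IL-17F. *Il17ra*, which also serves IL-17C and IL-25, lies on chromosome 6 (120463247 to 120487559, plus strand). It stood at 31.1, 24.3, 26.3, 24.98 and 24.4 CPM in controls and at 41.6, 24.5, 27.7, 27.7 and 47.6 CPM in mutant uteri. Replicates 1 and 5 were above every control and the other 3 were within the control range. The log2 fold change was 0.37 ± 0.18 (SE) with all uteri and 0.02 without replicates 1 and 5. *Il17rc* (chromosome 6, 113471427 to 113483140, plus strand) stood at 23.1, 24.8, 25.5, 23.3 and 22.9 CPM in controls and at 25.6, 31.3, 30.7, 35.8 and 23.7 CPM in mutant uteri. Here replicate 5 was within the control range and the other 4 were above it. The log2 fold change was 0.30 ± 0.11 (SE), and it was 0.37 without replicate 5, where the gene passed the adjusted p threshold.

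Per length of exons, the receptor subunits were far above the ligands in controls. *Il17rb* had a median of 56.3 CPM per kb (44.5 to 75.1 over 5 uteri), followed without overlap by *Il17rc* at 8.73 CPM per kb (8.58 to 9.54). *Il17ra* at 2.88 CPM per kb (2.80 to 3.59) and *Il17re* at 2.44 CPM per kb (1.95 to 2.99) overlapped, and they changed places when the longest transcript set the length. *Il23r* at 0.139 CPM per kb (0.113 to 0.297) overlapped with *Il25* at 0.0263 CPM per kb (0.0135 to 0.131). The order among *Il25*, *Il17a*, *Il17c* and *Il17f* could not be set, since their ranges overlapped. In mutant uteri the order at the top was no longer separated. *Il17rb* had a median of 12.7 CPM per kb (2.07 to 22.4), *Il17rc* of 11.5 CPM per kb (8.87 to 13.4) and *Il17re* of 9.43 CPM per kb (6.18 to 10.3), and these ranges overlapped, while *Il17ra* remained below *Il17re* at 3.20 CPM per kb (2.83 to 5.49). In mutant replicates 1 and 5, *Il17rb* at 2.39 and 2.07 CPM per kb was below *Il17ra* at 4.80 and 5.49 CPM per kb.

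**Figure D2:**
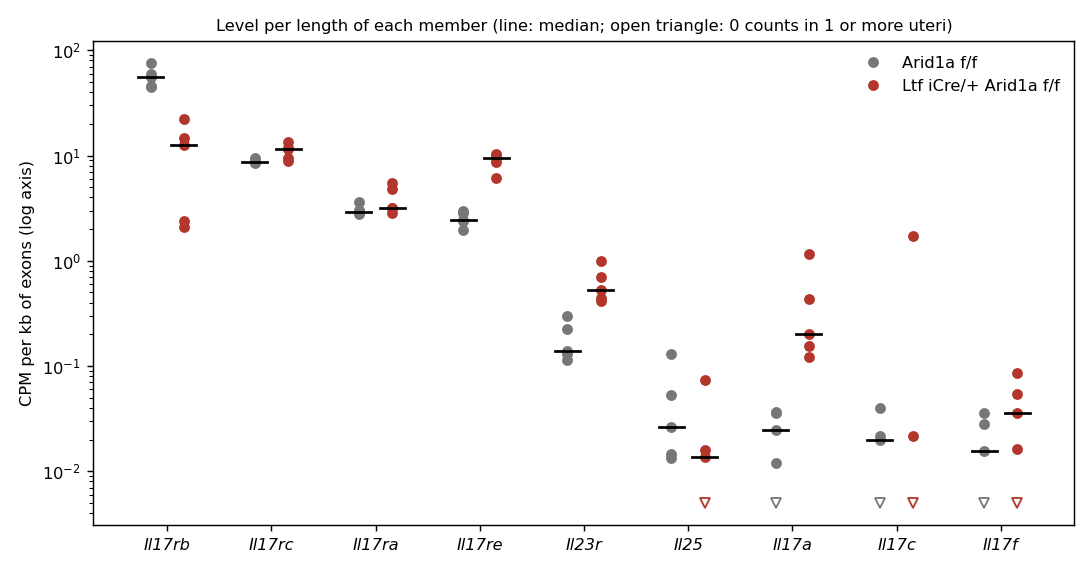
CPM per kb of exons of each member on a log axis, with grey points for control Arid1a f/f uteri, red points for mutant uteri, lines for medians and open triangles for uteri at 0 counts. *Il17rb* stands above the other members in controls (44.5 to 75.1 CPM per kb) and spreads from 2.07 to 22.4 CPM per kb in mutant uteri, across the levels of *Il17rc* and *Il17re*.

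Outside this group, 3 genes of the wider family were measured, and none passed the test. *Il17d*, a ligand of the family, was at 4.23 ± 0.817 CPM (SD, n = 5) in controls and 4.02 ± 0.715 CPM in mutant uteri (log2 fold change -0.07 ± 0.19, edgeR adjusted p = 0.854). *Il17rd*, a subunit that modulates the signal, was at 47.6 ± 7.08 CPM and 38.1 ± 10.6 CPM (-0.32 ± 0.17, adjusted p = 0.265), and without replicate 5 it passed at -0.50. *Il17b*, the other ligand of IL-17RB, was at 0.226 ± 0.0633 CPM and 0.250 ± 0.129 CPM.

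Among the cells known to make IL-17A, gamma delta T cells were represented by 11 genes tested. Of these, 9 rose in mutant uteri and none fell, with a median log2 fold change of 2.41 against 0.03 over all genes tested. Of all genes tested, 9.70% passed (5.19% higher and 4.51% lower), the share that stands beside this and each later list. *Tcrg-C1*, a constant segment of the T cell receptor gamma chain, stood at 1.82 ± 0.614 CPM (SD, n = 5) in controls and 12.3 ± 8.89 CPM in mutant uteri (2.76 ± 0.49 SE, edgeR adjusted p = 0.00682). *Trdv4*, a variable segment of the delta chain, rose by 2.51 ± 0.46 (adjusted p = 0.00786), *Tcrg-C2* by 2.58 ± 0.50 (adjusted p = 0.0107) and *5830411N06Rik*, a scavenger receptor gene of the same cells, by 2.30 ± 0.43 (adjusted p = 0.00872). The gamma constant segments *Tcrg-C1* and *Tcrg-C2* are near-identical copies, so that the level of each is uncertain. *Sox13*, at 65.7 and 53.6 CPM and lower on average (log2 fold change -0.29), and *Tcrg-V4*, at 0.0688 and 0.348 CPM, did not pass. None of the 11 genes was at or under 3 counts in every library, and the summed level of the list ranged from 75.0 to 99.3 CPM in controls and from 95.6 to 300 CPM in mutant uteri, with overlap.

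*Il17a* and the gamma delta T cell genes were not highest in the same uterus. The summed gamma delta T cell receptor level was 7.11 to 14.3 CPM in controls and 25.4, 23.6, 132, 79.6 and 45.8 CPM in mutant replicates 1 to 5. Replicate 3, with the highest of these, had 0.180 CPM of *Il17a*, and replicate 5, with the highest *Il17a* at 1.36 CPM, had 45.8 CPM of receptor transcript. Per 100 CPM of receptor transcript, *Il17a* was 0.328, 0.0974, 0, 0.322 and 0.248 in controls and 0.556, 1.00, 0.136, 0.638 and 2.97 in mutant uteri, and the genotypes overlapped through replicate 3. *Il23r* per 100 CPM of receptor transcript ranged from 2.24 to 5.59 in controls and from 1.88 to 4.37 in mutant uteri, so that the separation of *Il23r* by genotype was not seen on this scale. The part of such cells in either value was not tested.

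General T cell genes moved the same way in part. Of 14 genes, 7 rose and none fell, with a median of 0.96. The CD3 chains led, with *Cd3d* at 2.07 ± 0.34 (SE, edgeR adjusted p = 0.00503), *Cd3e* at 2.04 ± 0.34 (adjusted p = 0.00512) and *Cd3g* at 2.39 ± 0.42 (adjusted p = 0.00676), and *Trbc2*, a constant segment of the beta chain, at 1.52 ± 0.34 (adjusted p = 0.0197). The coreceptors of alpha beta T cells did not pass, with *Cd4* at 2.57 and 4.14 CPM and *Cd8a* at 2.10 and 2.40 CPM in controls and mutant uteri. The count of 7 was 3 without control replicate 3 or 4 and 4 without control replicate 2 or 5 or mutant replicate 4.

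Of 10 genes of type 17 lymphocytes reported here, 3 rose and none fell, with a median of 0.53 (0.17 with *Il22* at its bound). Of the 7 that did not pass, 4 were lower on average, *Rora* (-0.28), *Ahr* (-0.41), *Stat3* (-0.47) and *Maf* (-0.17), and *Maf* was below every control in all 5 mutant uteri. *Il7r*, the receptor of a lymphocyte survival cytokine, rose by 1.47 ± 0.26 on the log2 scale (SE, edgeR adjusted p = 0.00723), *Batf*, a transcription factor needed for type 17 differentiation, by 0.72 ± 0.17 (adjusted p = 0.0238) and *Il1r1*, the receptor of IL-1, by 0.57 ± 0.13 (adjusted p = 0.0179). *Il22*, a partner cytokine of IL-17A, had 0 counts in all controls and 13 counts in all over the mutant uteri, of which 2 had none. *Ccr6*, a chemokine receptor of type 17 cells, did not pass, at 0.137 and 0.205 CPM.

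The cytokines that drive type 17 cells, with their receptors, gave 3 calls among 13 genes tested, 2 higher and 1 lower, with a median of 0.34. *Il12rb1* encodes the subunit that pairs with IL-23R and is shared with the IL-12 receptor. It stood at 1.41, 1.19, 0.987, 1.31 and 1.34 CPM in controls and at 1.98, 2.94, 7.75, 9.28 and 4.85 CPM in mutant uteri, without overlap (log2 fold change 2.10 ± 0.38 SE, edgeR adjusted p = 0.00810). *Il1r1*, also on this list, was the other that rose. *Il6st*, the signalling subunit of the IL-6 receptor, fell from 969 ± 102 CPM (SD, n = 5) to 533 ± 64.5 CPM (-0.86 ± 0.11 SE, adjusted p = 0.00185). The subunits of IL-23 itself did not pass, with *Il23a* at 0.668 ± 0.184 CPM in controls and 0.620 ± 0.852 CPM in mutant uteri and *Il12b* at 0.281 ± 0.138 and 0.442 ± 0.339 CPM. *Il6* stood at 0.845 ± 0.380 and 0.541 ± 0.419 CPM and did not pass. *Il1b* ranged from 0.350 to 1.42 CPM in controls and from 0.736 to 76.0 CPM in mutant uteri (adjusted p = 0.0702).

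Downstream of the receptors, 27 genes for adaptors, kinases and regulators were tested, of which 1 rose and 1 fell, with a median of 0.11. This is near the 9.70% called over all genes tested. *Traf3ip2*, which encodes the adaptor Act1 that binds all IL-17 receptors, stood at 51.5 ± 2.78 CPM (SD, n = 5) in controls and 42.1 ± 5.52 CPM in mutant uteri (log2 fold change -0.29 ± 0.10 SE, edgeR adjusted p = 0.0827). *Ikbkg*, the regulatory subunit of the IkappaB kinase, fell by 0.32 ± 0.07 (adjusted p = 0.0228). *Zc3h12a*, an endoribonuclease that IL-17 induces and that degrades its target transcripts, was at 2.85 to 3.39 CPM in controls and at 9.66, 3.60, 4.66, 7.41 and 56.9 CPM in mutant uteri (2.42 ± 0.69, adjusted p = 0.0484). All were above every control, but without replicates 1 and 5 the log2 fold change was 0.77 and did not pass.

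Among 32 genes known to be induced by IL-17A, 28 were tested, with a median of 1.35. At an adjusted p under 0.05, 5 rose and none fell. By sign alone, 19 of the 28 were higher and 9 were lower in mutant uteri. *Ptgs2*, the inducible cyclooxygenase, stood at 1.73 to 5.20 CPM in controls and at 3.25, 15.99, 14.7, 16.3 and 26.6 CPM in mutant uteri, with replicate 1 inside the control range (log2 fold change 2.22 ± 0.46 SE, edgeR adjusted p = 0.0136). *Csf3*, the growth factor of neutrophils, stood at 0.993, 4.17, 2.60, 2.88 and 4.06 CPM in controls and at 4.50, 7.33, 6.02, 9.41 and 14.7 CPM in mutant uteri, without overlap (1.51 ± 0.40, adjusted p = 0.0364), though it did not pass without replicate 5 (1.21). *Lcn2*, an antimicrobial protein of epithelium and neutrophils, was at 0.838 to 1.71 CPM in controls and at 635, 4.61, 2.35, 32.8 and 1659 CPM in mutant uteri (8.60 ± 1.79, adjusted p = 0.0139). *Cxcl5*, a chemokine for neutrophils, was at 0.128 to 0.689 CPM in controls and at 3.18, 0.118, 0.213, 1.66 and 288 CPM in mutant uteri (7.54 ± 2.12, adjusted p = 0.0459), and did not pass without replicate 5 (2.03). The other call was *Zc3h12a*. When each uterus was left out in turn, *Ptgs2* and *Lcn2* passed in 10 of 10 fits, *Csf3* and *Cxcl5* in 4 and *Zc3h12a* in 3. With the replicate number as a block, *Csf3* passed (edgeR adjusted p = 0.0121). *Ptgs2* (adjusted p = 0.0531), *Lcn2* (0.155, with a log2 fold change of 5.43), *Cxcl5* (0.429) and *Zc3h12a* (0.129) did not pass in that fit. The number of calls was 2 without control replicate 2, 3, 4 or 5, 3 without control replicate 1 or mutant replicate 4, and 10 without mutant replicate 3. *Defb3*, *Defb4*, *Muc5ac* and *Muc5b* were at or under 3 counts in every library.

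The target genes were highest in 1 uterus. Their summed level was 269 to 341 CPM in controls and 930, 251, 264, 353 and 4016 CPM in mutant replicates 1 to 5, and replicates 2 and 3 were below every control. In replicate 1, *Lcn2* made up 635 of the 930 CPM. The targets *Lcn2*, *S100a8* and *S100a9* are neutrophil genes as well, and without these 3 the sums were 265 to 337 CPM in controls and 294, 245, 260, 318 and 1684 CPM in mutant uteri, so that only replicate 5 was above the controls. *Cxcl1*, a chemokine widely used as a readout of IL-17A, was at 0.434, 0.432, 0.282, 0.469 and 0.230 CPM in controls and at 0.0157, 0.152, 0.196, 0.421 and 13.5 CPM in mutant uteri and did not pass (adjusted p = 0.186). It was chosen for mention after its values were seen, as were *Csf2* at 0.160 and 1.19 CPM and *Ccl20* at 0.00566 and 0.504 CPM, which did not pass either.

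**Figure D3:**
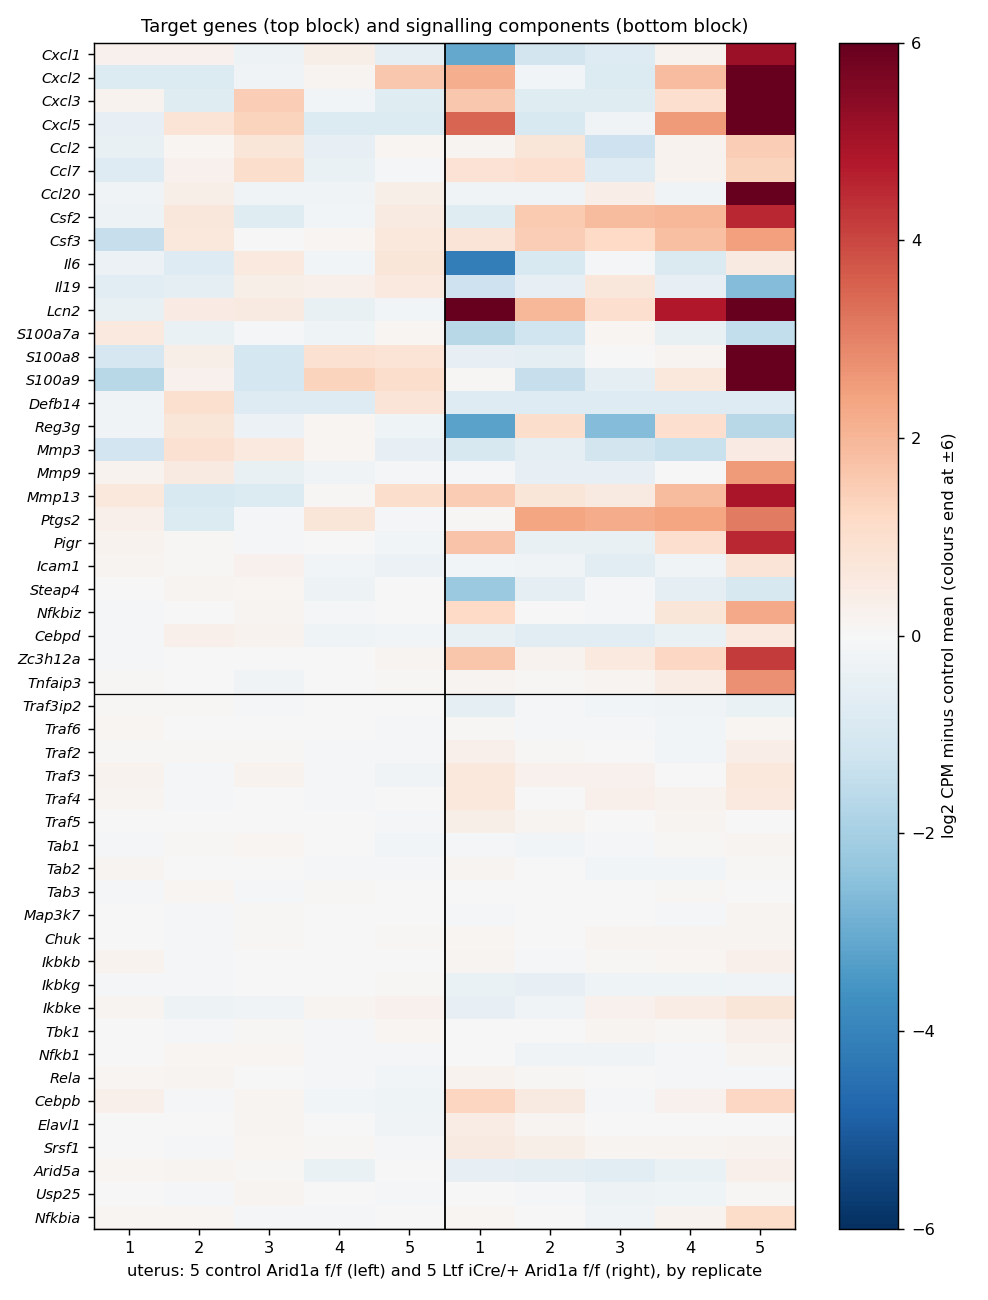
Log2 CPM minus the control mean of 28 IL-17 target genes (upper block) and the signalling components not already among them (lower block) in each uterus (columns, controls left, mutant right), with red for higher, blue for lower and colours ending at 6. The deepest red column is replicate 5 of the mutant uteri, although some target genes are blue there. *Lcn2*, *Cxcl5*, *Ptgs2* and *Csf3* are red in other mutant uteri as well, with *Lcn2* the deepest in replicate 1, while the lower block is paler in every uterus.

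Neutrophil genes, which IL-17 targets are known to recruit, gave 3 calls of 11 tested and none lower, with a median of 4.30. These were *Lcn2*, *Ly6g* (0.108 ± 0.0547 CPM in controls, 1.56 ± 2.20 CPM in mutant uteri, edgeR adjusted p = 0.0294) and *Mmp8* (0.0546 ± 0.0302 and 3.58 ± 7.63 CPM, log2 fold change 5.99, adjusted p = 0.0440). Without replicate 5, *Mmp8* was at 1.56 and did not pass (adjusted p = 0.0919), and *Ly6g*, at 3.82 with all uteri, was at 2.50 (adjusted p = 0.0457). The summed level of the list was 7.12 to 25.8 CPM in controls and 652, 17.9, 16.3, 56.7 and 2541 CPM in mutant uteri. Without *Lcn2*, a sum formed after the data were seen, it was 6.28 to 24.8 CPM in controls and 17.1, 13.2, 13.9, 23.9 and 882 CPM in mutant uteri. On this sum, replicates 1 to 4 were within the control range and replicate 5 was above it. Single genes of low level differed from the sum. *Mmp8* was above every control in all 5 mutant uteri (0.110 to 17.2 CPM against 0.0139 to 0.0852 CPM). *Ly6g* was above every control in 4 of them. Each other gene of this sum was above every control in at most 2 mutant uteri. In replicates 2 and 3, where *Lcn2* was lowest among the mutants, *Il17a* stood at 0.237 and 0.180 CPM, still above every control, with *Il17re* at 55.4 and 51.1 CPM and *Il23r* at 1.03 and 2.49 CPM. Without replicates 1 and 5, 1 neutrophil gene passed, *Lcn2*, with a log2 fold change of 3.46. *Elane* was at or under 3 counts in every library.

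The members were also set against the epithelium, the tissue in which *Arid1a* was deleted and where *Il17re* and *Il17rb* are known to be expressed. Of 10 epithelial markers, 6 rose and 1 fell, with a median of 0.79, and their summed level was 799 to 1061 CPM in controls and 1145 to 2236 CPM in mutant uteri, without overlap. *Cdh1* (E-cadherin) rose by 0.82 ± 0.16 (SE, edgeR adjusted p = 0.0106), *Krt7* by 1.83 ± 0.38 (adjusted p = 0.0140), *Krt8* by 0.87 ± 0.20 (adjusted p = 0.0220) and *Muc1* by 2.01 ± 0.48 (adjusted p = 0.0239). *Foxa2*, a transcription factor of uterine glands, fell by 1.13 ± 0.19 (adjusted p = 0.00570). Of the stromal markers, 1 of 8 passed, *Vim*, which was lower (-0.94 ± 0.20, adjusted p = 0.0139). None of the 5 myometrial markers or of the 8 macrophage and monocyte markers passed the main edgeR test. By DESeq2, the monocyte marker *Ccr2* (adjusted p = 0.0372) was higher and the myometrial marker *Myh11* (adjusted p = 0.0442) was lower. Both also passed when the edgeR fit took replicates as blocks (adjusted p = 0.0483 and 0.0471). *Csf1r* and *Acta2* passed in neither. When each uterus was left out in turn, *Ccr2* passed in 0 and *Myh11* in 1 of 10 fits. By sign alone, 7 of the 8 stromal and all 5 myometrial markers were lower, with medians of -0.35 and -0.46. Of the 8 macrophage and monocyte markers, 7 were higher, with a median of 0.58.

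On the scale of summed epithelial marker counts, *Il17rb* was still lower in every mutant uterus, with 187300 to 276300 counts for each 1000000 marker counts in controls and 3969 to 63350 in mutant uteri (log2 ratio of means -2.87). *Il17re* was still higher, at 14190 to 18970 against 21680 to 44620 (1.17). *Il17a* was higher as well (3.59, no overlap), whereas *Il23r* overlapped (1.22). *Il17ra* (-0.36) and *Il17rc* (-0.34) overlapped and turned from higher to lower on this scale. This scaling was chosen after the data were seen.

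On the side of IL-25 and its receptor, the tuft cell genes gave 1 call of 10 tested, with a median of 0.11. This is near the 9.70% called over all genes tested. The call was *Avil*, which encodes the actin-binding protein advillin and rose from 1.64 ± 0.633 CPM (SD, n = 5) to 14.8 ± 8.33 CPM (log2 fold change 3.18 ± 0.39 SE, edgeR adjusted p = 0.00156). *Pou2f3*, the transcription factor that defines tuft cells, was at 0.492 ± 0.166 and 0.525 ± 0.176 CPM and did not pass. Among 16 tested genes of type 2 responses, 3 rose and none fell, with a median of 0.69. They were the chemokines *Ccl17* (4.20 ± 0.74, adjusted p = 0.00680) and *Ccl22* (2.10 ± 0.59, adjusted p = 0.0455) and the chitinase-like *Chil3* (4.44 ± 1.21, adjusted p = 0.0409), and replicate 5 had the highest value of each. Without replicate 5, *Chil3* was at 2.17 (adjusted p = 0.0784) and *Ccl22* at 1.35 (adjusted p = 0.0772), which did not pass, and *Ccl17* was at 3.36 (adjusted p = 0.00506). *Il5* at 0.0679 and 0.216 CPM and *Il13* at 0.00836 and 0.107 CPM, the cytokines that IL-25 is known to induce, did not pass.

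Of 12 genes of innate lymphoid cells, which also respond to IL-23 and IL-25, 2 rose and 1 fell, with a median of 0.80. *Klrb1b*, a lectin-like receptor, rose by 1.20 ± 0.29 (SE, edgeR adjusted p = 0.0275) and *Arg1*, the arginase of innate lymphoid cells and macrophages, by 3.96 ± 1.03 (adjusted p = 0.0348), with replicate 5 the highest at 76.7 CPM. Without replicate 5 the log2 fold change of *Arg1* was 1.62 (adjusted p = 0.0195). *Areg*, which encodes the growth factor amphiregulin and is also a progesterone-induced gene of the uterine epithelium, fell from 10.6, 9.28, 7.07, 7.56 and 8.01 CPM in controls to 0.0470, 0.608, 0.491, 0.596 and 0.145 CPM (-4.49 ± 0.54, adjusted p = 0.00131). As for *Il17rb*, replicates 1 and 5 were the lowest.

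The genes whose log2 CPM ran most like that of a member over the 10 uteri were looked for among those with a mean of at least 50 counts. For *Il17a*, the 5 highest Pearson correlations over 14849 genes were with *Scd3* (0.983), *5930412G12Rik* (0.983), *Tmem171* (0.973), *AA467197* (0.972) and *Ctla4* (0.971), an inhibitory receptor of T cells. For *Il17rb*, over 14848 genes, they were with *Smarca2* (0.986), an ATPase of the SWI/SNF complexes, *Fam234b* (0.986), *Rtn1* (0.986), *Tmem158* (0.985) and *Gstm2* (0.984). *Smarca2* was lower in mutant uteri by a log2 fold change of -0.76 ± 0.16 (SE). For *Il23r*, added after the values were seen, the 5 were *Med18*, *Tcrg-V6* (0.961), *Tcrg-C1* (0.960), *Bcl11b* (0.955) and *Cd163l1* (0.952), 3 of which are on the gamma delta T cell list. These correlations span both genotypes and are given as a description, since all points share the genotype difference.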

How the data were processed

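From 5 control (Arid1a f/f) and 5 mutant (Ltf iCre/+ Arid1a f/f) mice, mRNA of whole uterine tissue, from a part of each uterus, was read from both ends over 50 bases. The authors trimmed reads with cutadapt 1.18 and Trim Galore 0.6.4, checked them with FastQC 0.11.9, aligned them to GRCm38 with STAR 2.7.3a and deposited its raw counts per gene, with no normalization. The annotation release and the strand setting are not given in the sources used here. Each library is labelled as the uterus of 1 adult mouse, and the tool versions come from the submitters' processing notes.

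Symbols and positions came from GENCODE for GRCm38, in which 45143 of 45706 identifiers were present. Genes averaging 1 count or more per library were tested in R 4.3.3 with edgeR 4.0.16 (TMM, quasi-likelihood test, genotype only, Benjamini-Hochberg adjustment over all 25146 genes, threshold 0.05). CPM values use TMM library sizes, and log2 CPM a prior count of 2. Ratios of summed counts carry exact 95% binomial intervals, and intervals and floors of 3 counts cover counting error only. Libraries of one genotype differed by a chi-square of at least 33.3 per gene, so none was a duplicate. The fit was tested on simulated data. Alternatives were DESeq2 1.42.0, other scalings and filters, the replicate number as a block, the omission of each uterus and, added after the data were seen, the omission of replicates 1 and 5 and scaling by epithelial markers.

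The 9 members and 15 lists were chosen with earlier results of these data known. Besides the members, *Arid1a* and *Ltf*, the genes named are, per list, up to 4 of lowest adjusted p in each direction (2 of highest count where none passed), and the 5 of highest Pearson r with *Il17a* and *Il17rb*. Other genes were picked after their values were seen (*Actr8*, *Il17b*, *Il22*, *Ccr6*, *Il23a*, *Il12b*, *Il6*, *Il1b*, *Sox13*, *Rora*, *Ahr*, *Stat3*, *Maf*, *Tcrg-V4*, *Cd4*, *Cd8a*, *Traf3ip2*, *Pou2f3*, *Il5*, *Il13*, *Cxcl1*, *Csf2*, *Ccl20*, *S100a8*, *S100a9*). 1 gene of these lists is not reported here.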

Additional observations from a re-analysis of the deposited data

Results flagged for a closer look

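In 19 of the 134 sets of 5 uteri examined, the highest or lowest uterus lay far from the other 4. The measure was Dixon's criterion (gap over range above 0.71), which independent, normally distributed values meet in about 1 in 20 sets. The sets share the same 10 uteri and some hold low counts, so that rate is only a rough guide. Of the 19, 13 were in mutant replicate 5. Among the members, this applied to *Il17c* in that uterus, at 1.24 CPM, and to *Il25* in mutant replicate 1, at 0.0784 CPM, which is 5 counts.

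In replicate 5 the others were the summed neutrophil genes (2541 CPM), the summed IL-17 target genes (4016 CPM), *Ltf* (2831 CPM), *Cxcl5* (288 CPM), *Csf1r* (129 CPM), *Arg1* (76.7 CPM), *Zc3h12a* (56.9 CPM), *Il17rd* (56.3 CPM), *Mmp8* (17.2 CPM), *Chil3* (8.48 CPM), *Ccl22* (8.45 CPM) and *Ccl17* (3.78 CPM). The epithelial keratin gene *Krt8* stood out in mutant replicate 1 at 315 CPM. Among controls, *Ltf* was high in replicate 1 (11.7 CPM), *Trdv4* (0.799 CPM) and *Cd3g* (2.66 CPM) were low in replicate 3, and *Klrb1b* (1.09 CPM) was low in replicate 4.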

How the results depend on the processing

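Over all alternatives, 147 values of the members' differences moved by less than the replicate spread. The 9 that moved further were of *Il17f*, *Il25*, *Il17ra*, *Il17rc*, *Il17re* and *Il23r*, without replicates 1 and 5 (or 1) or per epithelial marker count, and on that scale *Il17ra* and *Il17rc*, which had not passed, changed sign. The number of members past the threshold was 3 to 5 over all alternatives. Leaving out each uterus in turn gave log2 fold changes of 3.28 to 4.39 for *Il17a*, -2.83 to -2.12 for *Il17rb* and 1.53 to 2.02 for *Il23r*, 1204 to 2381 calls over all genes (2438 with all uteri), 24 to 53 among the list genes (45 with all uteri), 3 to 8 among T cell genes, 2 to 10 among target genes, 8 to 10 among gamma delta T cell genes, 1 to 4 among neutrophil genes, 1 to 4 among innate lymphoid genes and 3 to 7 among epithelial markers. Of the list genes named as calls, *Ccl22* passed in 2 of these 10 fits, *Klrb1b* and *Zc3h12a* in 3, *Chil3*, *Mmp8*, *Csf3* and *Cxcl5* in 4, *Arg1* and *Muc1* in 5, *Ly6g* in 6, *Batf*, *Ikbkg* and *Krt8* in 7, *Trbc2* in 8 and the other reported ones in all 10. DESeq2 called 4103 genes and gave no adjusted p for *Arg1*, *Mmp8* and *Cxcl5*. These genes did not pass with the replicate number as a block either (edgeR adjusted p = 0.107, 0.1965 and 0.429). *Il17d*, which did not pass, ran from -0.18 to 0.01, at 0.00 without control replicate 1 and 0.01 without mutant replicate 5, and *Csf1r*, which did not pass either, from -0.02 (without that mutant uterus) to 0.53. By Spearman's rank correlation, 3 of the 5 genes most like *Il17a* and 2 of those most like *Il17rb* were the same.

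Whether same-numbered uteri were paired is not given in the sources used here. The correlations of their deviations were 0.034, 0.094, -0.128, 0.044 and 0.189. Of 5 controls, 1, replicate 2, correlated best with its own number. These few values cannot settle whether there was a pairing. With the replicate number as a block, 1704 genes passed, with 27 list genes, 4 gamma delta T cell genes, 3 T cell genes and 3 target genes, and *Il17rb* was at -2.87 and *Il17a* at 3.88. The cause of these moves was not tested. Depth limits the ligands, which 10 libraries held at 0 to 94 counts.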
